A study of Mus musculus with 9 samples.

Results

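The circular RNAs (circRNAs) of Notch pathway genes in the embryonic mouse cortex were described here for 10 listed genes: the receptors Notch1, Notch2 and Notch3, the ligands Dll1 and Jag1, the glycosyltransferases Mfng and Lfng, the co-activators Maml1 and Maml3, and the inhibitor Numb. A circRNA was taken as a member when its parental gene on the same strand was one of these genes, which gave 11 circRNAs of 5281 in the count table. Of the listed genes, 7 had at least 1 circRNA. No circRNA had Notch3, Dll1 or Jag1 as its parental gene.

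Cells were sorted from the lateral cortex of mouse embryos at embryonic day 14.5, from which the authors had removed meninges and ganglionic eminences. All groups came from double heterozygous reporter mice on a C57BL/6 background, in which Btg2 drives RFP and Tubb3 drives GFP. Proliferative progenitors (PP) were RFP-/GFP-, differentiative progenitors (DP) were RFP+/GFP-, and newborn neurons (N) were GFP+ whatever their RFP, so that each group is a sort gate and not a lineage-traced population. Total RNA was treated with RNase R, an exonuclease that degrades linear RNA, and each cell type has 3 libraries. PP thus holds every cell without either reporter.

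In Notch signalling, a ligand of one cell binds a receptor on its neighbour, the receptor is cleaved, and its intracellular domain activates transcription together with a co-activator of the Mastermind-like family (Maml). In the developing cortex this is known to keep progenitor cells from differentiating. Fringe enzymes, among them those encoded by Mfng (manic fringe) and Lfng (lunatic fringe), add sugars to the extracellular part of the receptors and so change which ligands activate them. Numb is an inhibitor of the receptors that is known for its unequal inheritance in dividing cells. CircRNAs form when a donor splice site is joined back to an acceptor splice site upstream of it, and the resulting backsplice junction is a sequence that the linear transcript lacks.

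The junctions below, read from the mm9 genome (NCBIM37), identify the circRNAs of Mfng, Notch1, Notch2 and Lfng, on which the differences between cell types turn. Each is written 5′ to 3′ on the strand of the gene, with the last 20 bases before the junction in lower case and the first 20 bases after it, at the acceptor end, in capitals.
Mfng exons 3 to 4, CiCo_mm9_circ_002131, chr15:78594745-78597350, minus strand: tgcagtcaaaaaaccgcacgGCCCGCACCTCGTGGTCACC
Mfng exons 5 to 7, CiCo_mm9_circ_002130, chr15:78587727-78591321, minus strand: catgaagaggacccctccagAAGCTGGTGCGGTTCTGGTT
Notch1 exons 3 to 4, CiCo_mm9_circ_003686, chr2:26339788-26340969, minus strand: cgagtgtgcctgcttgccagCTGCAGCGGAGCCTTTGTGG
Notch2 exons 3 to 5, CiCo_mm9_circ_004213, chr3:97874783-97885962, plus strand: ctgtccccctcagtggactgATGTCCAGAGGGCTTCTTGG
Notch2 exons 17 to 21, CiCo_mm9_circ_004214, chr3:97921116-97928256, plus strand: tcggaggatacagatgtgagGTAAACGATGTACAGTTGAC
Lfng within intron 2, CiCo_mm9_circ_004960, chr5:141087957-141088174, plus strand: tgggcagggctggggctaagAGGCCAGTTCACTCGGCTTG

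All 11 circRNAs have AG just before the acceptor end and GT just after the donor end in the genome, which find_circ requires of the junctions it reports. By GENCODE vM1, 10 of them start and end at exon ends. The circRNA of Mfng exons 3 to 4 is formed by 257 bases, all of them coding, with 103 bases from the acceptor exon and 154 from the donor exon. It is shown whole because it was the only circRNA of the list that passed the threshold as higher in DP than in PP. It starts at the acceptor end, with the matches of the divergent primers that the study designed for it in capitals.
Mfng exons 3 to 4, whole circle: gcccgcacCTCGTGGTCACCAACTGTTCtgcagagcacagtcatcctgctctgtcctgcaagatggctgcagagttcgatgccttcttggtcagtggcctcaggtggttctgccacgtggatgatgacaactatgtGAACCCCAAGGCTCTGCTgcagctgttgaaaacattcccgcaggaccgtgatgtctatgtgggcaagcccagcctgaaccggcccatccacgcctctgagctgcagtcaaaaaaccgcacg
Forward primer: gaaccccaaggctctgct
Reverse primer: gaacagttggtgaccacgag
The forward primer lies at bases 137 to 154 of the circle and the reverse primer matches bases 9 to 28 on the other strand, so that they point away from each other in the linear transcript and would give a product of 149 bases across the junction.

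The second circRNA of Mfng, of exons 5 to 7, lies downstream of the first, and the same intron of 3423 bases separates them. The circRNA of Notch1 holds exons 3 to 4 of 34, and those of Notch2 hold exons 3 to 5 and exons 17 to 21 of 35, which share no base. The circRNA of Maml3 (CiCo_mm9_circ_004073, chr3:51659421-51660998, minus strand) is exon 2 alone, 1578 coding bases between introns of 246602 and 157655 bases. Those of Maml1 are exons 2 to 4 (CiCo_mm9_circ_000948, chr11:50074479-50080512, minus strand) and exons 2 to 3 (CiCo_mm9_circ_000949, chr11:50076752-50080512, minus strand). They share an acceptor and 1650 of the 1747 bases of the longer one, and with 350 and 342 counts in all libraries they cannot be read as independent measurements. Those of Numb are exons 4 to 5 (CiCo_mm9_circ_001483, chr12:85172872-85183308, minus strand) and exons 2 to 4 (CiCo_mm9_circ_001484, chr12:85183168-85217762, minus strand), which share an exon of 141 bases. Of the 371 bases of Numb exons 2 to 4, 126 are coding.

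The circRNA of Lfng differs from the others in that it holds no exon. It covers 218 of the 392 bases of intron 2, and neither of its ends is an annotated exon end. The study detected no intron in its cloned circRNAs and proposes that intron reads may come from lariats (introns released as loops by splicing). Whether this applies to the circRNA of Lfng was not tested. Its sequence is given because no exon describes it.
Lfng within intron 2, whole interval: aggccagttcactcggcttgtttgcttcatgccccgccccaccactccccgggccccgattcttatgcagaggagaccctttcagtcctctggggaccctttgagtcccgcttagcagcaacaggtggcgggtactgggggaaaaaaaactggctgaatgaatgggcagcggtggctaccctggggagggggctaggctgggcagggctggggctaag

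**Figure D1:**
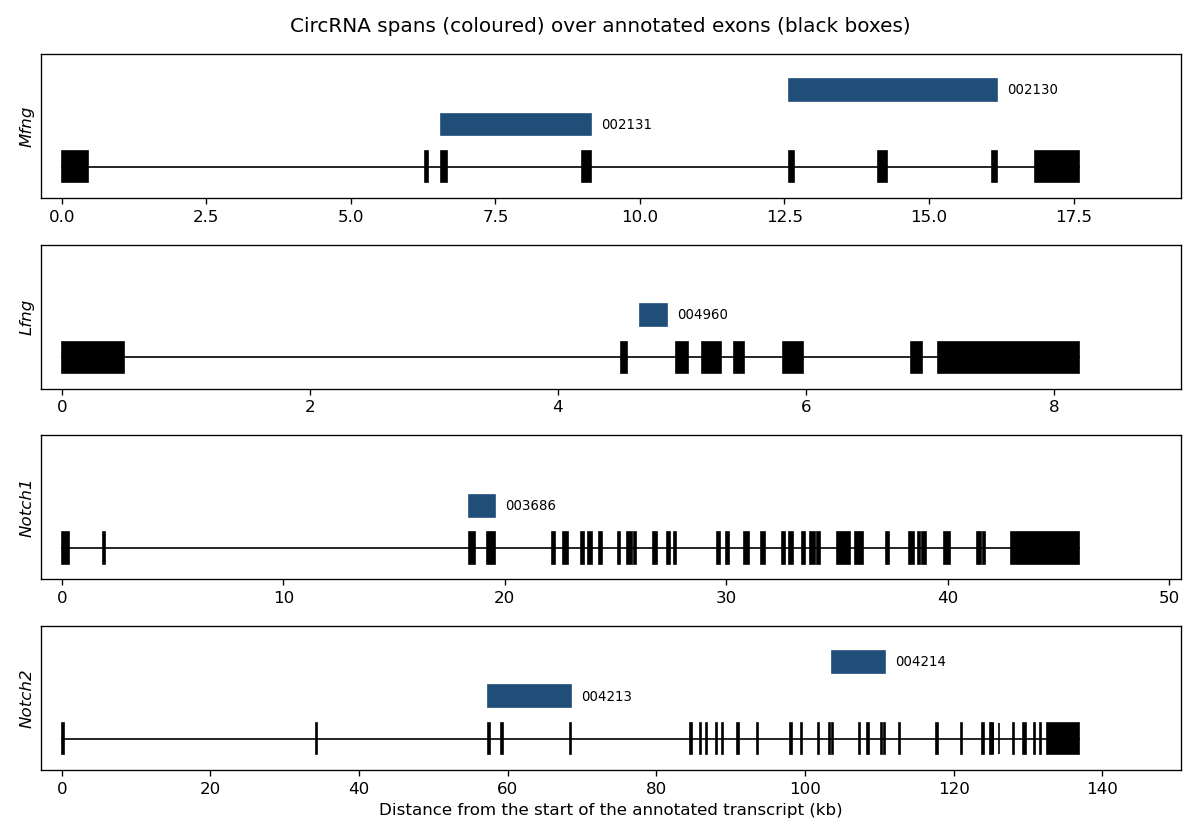
Position of the circRNAs (coloured bars with the last digits of their identifiers) over the annotated exons (black boxes) of Mfng, Lfng, Notch1 and Notch2, with the distance from the start of the transcript in kb on the horizontal axis. The circRNAs of Mfng are separated by 1 intron, and that of Lfng lies between exons.

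The counts of a circRNA are all reads on its counted exons and, where included, introns, with or without the junction. For 7 of the circRNAs the counted length was that of their exons alone. For 3 it was longer: 3258 of 3596 counted bases of Mfng exons 5 to 7 lie outside exons (both introns), as do 581 of 1183 bases of Notch1 (its intron) and 2839 of 3762 bases of Notch2 exons 17 to 21 (3 introns). Such lengths were found for 548 circRNAs of the table (10.4%). By these lengths, the values of these 3 circRNAs include reads on intron sequence, as do those of Lfng. The study's text says that introns were left out of its later analyses but kept among its expressed features. Its counts for differential expression were taken over these expressed features and summed per circRNA. The reads themselves were not analysed here. Per library, total counts were between 2962787 and 8015311, but outside the entries within Cdk8 and on chromosome 17 that took most reads, they were between 83572 and 287983. A count of 3, taken as the floor of detection, corresponded to between 0.340 and 1.39 CPM (counts per 1000000 of effective library size), which covers counting error only.

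The circRNAs of marker genes were read in the sorted cells. Of the 14 listed genes of proliferative progenitors, 4 had circRNAs (Fgfr2, Mki67, Ptprz1 and Top2a), whose summed level was between 223 and 297 CPM in PP, 119 and 144.5 in DP, and 54.1 and 79.2 in N. The 16 circRNAs of the neuronal genes Ank3, Bcl11b, Dcc and Myt1l had a summed level of 5.45 to 17.7 CPM in PP, 53.3 to 76.0 in DP and 286 to 374.5 in N. Of the 7 listed DP genes only Elavl4 had a circRNA, with 18.0 to 19.5 CPM in DP against at most 6.49 in PP and 11.4 in N. All marker lists were chosen with earlier results of these data known, so that none of these sums is an independent check of the sorted cells. The values for the DP list rest on this 1 circRNA. None of the listed genes of interneurons, endothelial cells, pericytes and meninges, microglia or the oligodendrocyte lineage had a circRNA in the table, so that these cells could not be checked.

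**Figure D2:**
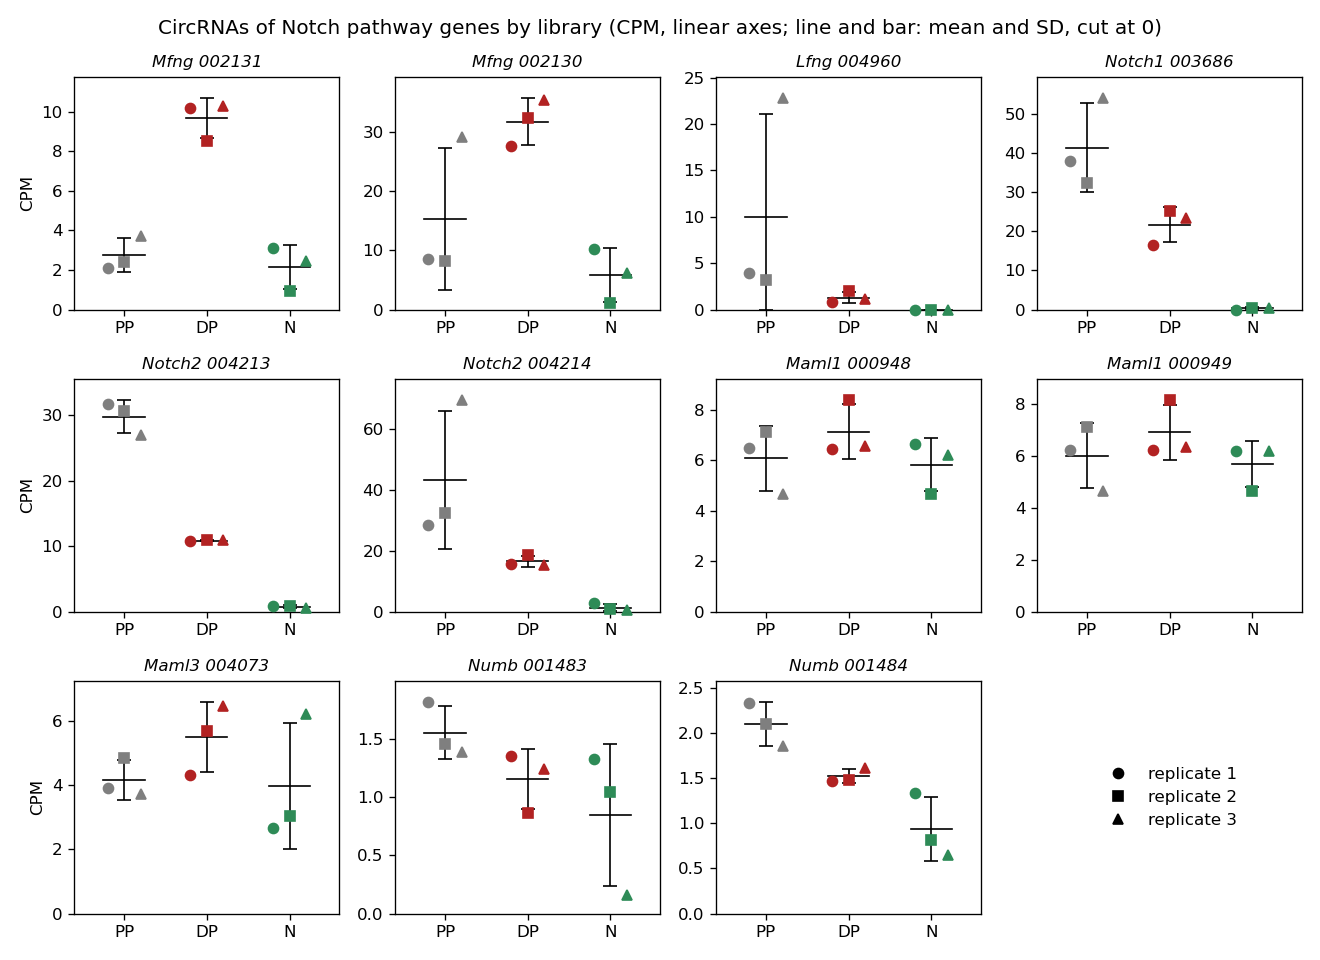
CPM (vertical axes, linear, from 0) of each of the 11 circRNAs in the 3 libraries of PP, DP and N, with the mean and SD of each cell type. The circRNAs of Mfng are highest in DP, those of Notch1, Notch2 and Lfng are highest in PP and near or at 0 in N, and those of Maml1 and Maml3 overlap between the cell types, apart from Maml1 exons 2 to 3 between DP and N.

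Both circRNAs of Mfng had their highest mean in DP, and that of exons 3 to 4 was the only one of the list that passed the threshold both as higher in DP than in PP and as lower in N than in DP. The circRNA of Mfng exons 3 to 4 had 2.08, 2.43 and 3.72 CPM in PP replicates 1 to 3, from 8, 15 and 8 counts. It had 10.2, 8.51 and 10.3 CPM in DP, from 90, 69 and 83 counts, and 3.10, 0.931 and 2.45 CPM in N, from 7, 8 and 15 counts. Every DP library was thus above every PP and every N library, while PP and N overlapped. It rose 3.68-fold from PP (2.74 CPM ± 0.864, SD, n = 3) to DP (9.67 CPM ± 1.01, SD, n = 3), with a log2 FC of 1.88 (SE 0.396, adjusted p = 0.0260). From DP to N (2.16 CPM ± 1.11, SD, n = 3) it fell, with a log2 FC of -2.32 (SE 0.400, adjusted p = 0.000899). Between N and PP the log2 FC was -0.44 (adjusted p = 0.540). In bulk RNA of sorted cells, fewer cells that hold a circRNA and less of it per cell cannot be told apart.

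The rise of Mfng exons 3 to 4 rests on few counts in PP, and with scaling to total counts it did not pass (adjusted p = 0.267). With a library left out, its log2 FC from PP to DP stayed between 1.74 and 2.10, but it passed the threshold in 3 of 9 such fits, with adjusted p values between 0.00553 (without PP replicate 3) and 0.139 (without PP replicate 1). The fall from DP to N passed in all 9 of them. The pattern of a rise and a fall, both past the threshold, was held by 4 of the 4406 circRNAs tested (0.0908%), the others being 2 of Kif26b and 1 of Elavl4.

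The circRNA of Mfng exons 5 to 7 was lower in N than in DP, and its difference between PP and DP depended on 1 library. It had 8.57 and 8.25 CPM in PP replicates 1 and 2 but 29.3 in PP replicate 3. It had 27.6, 32.4 and 35.4 CPM in DP, and 10.2, 1.05 and 6.21 CPM in N. The DP libraries were all above those of N, whereas PP replicate 3 lay within the range of DP. From DP to N it fell 6.06-fold, with a log2 FC of -2.60 (SE 0.637, adjusted p = 0.00987). From PP to DP the log2 FC was 1.11 (SE 0.590, adjusted p = 0.518), and without PP replicate 3 it was 1.94 (adjusted p = 0.0457). From PP to N it was -1.49 (adjusted p = 0.106), and this value moved with the library left out: it was -2.04 without N replicate 1 (adjusted p = 0.0405), -0.87 without N replicate 2 (adjusted p = 0.276) and -0.74 without PP replicate 3 (adjusted p = 0.324).

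Whether the circRNAs of Mfng changed in proportion was asked by their ratio within each library, as the log2 of the count of exons 3 to 4 over that of exons 5 to 7 with a pseudocount of 0.5. It was -1.98, -1.73 and -2.90 in PP, -1.43, -1.92 and -1.77 in DP, and -1.65, -0.16 and -1.31 in N. The cell types overlapped between PP and DP and between DP and N, and N was above PP in every library. The largest difference, N over PP, was 1.16 on the log2 scale (two-sided exact permutation test, p = 0.1, the smallest that 3 against 3 libraries allow, adjusted p = 0.6 over 6 ratios tested). A design of this size cannot reach the threshold, so that a difference in proportion was not detectable.

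The circRNAs of the receptors had their highest mean in PP and their lowest in N. The circRNA of Notch1 had 37.9, 32.2 and 53.9 CPM in PP, 16.5, 25.2 and 23.4 in DP, and 0, 0.465 and 0.490 in N. In N this came from 0, 4 and 3 counts, against 116 to 199 in PP and 146 to 204 in DP. No library of one cell type overlapped those of another. It fell 51.4-fold from DP to N, with a log2 FC of -5.68 (SE 0.495, adjusted p = 1.3e-05), and was 97.3-fold lower in N than in PP, with a log2 FC of -6.60 (SE 0.499, adjusted p = 1.06e-06). Its mean of 0.318 CPM in N is below the floor of 3 counts per library (0.723 CPM), against which PP was 57.2-fold and DP 30.0-fold higher. Between DP and PP the log2 FC of -0.92 (SE 0.335) did not pass (adjusted p = 0.256).

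Notch2 exons 3 to 5 was the only circRNA of the list that passed the threshold as lower in both steps. It had 31.7, 30.7 and 27.0 CPM in PP, 10.8, 10.9 and 10.9 in DP, and 0.886, 0.814 and 0.490 in N, the last from 2, 7 and 3 counts. The 3 cell types did not overlap, and the libraries of DP were almost equal. It fell 2.75-fold from PP to DP, with a log2 FC of -1.46 (SE 0.270, adjusted p = 0.0108), and 14.9-fold from DP to N, with a log2 FC of -3.90 (SE 0.368, adjusted p = 2.4e-05). In N it was 41.1-fold lower than in PP (log2 FC -5.36, SE 0.370, adjusted p = 1.06e-06). A fall in both steps was found for 9 of the 4406 circRNAs tested (0.204%), among them 2 of Fgfr2 and 2 of Plce1. With a library left out, the fall from PP to DP had a log2 FC between -1.50 and -1.41 and passed the threshold in 4 of 9 fits, with adjusted p values between 0.00198 (without PP replicate 3) and 0.111 (without DP replicate 3). With scaling to total counts it did not pass (adjusted p = 0.668).

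Notch2 exons 17 to 21 was likewise low in N. It had 28.3 and 32.2 CPM in PP replicates 1 and 2 and 69.3 in PP replicate 3. It had 15.6, 18.6 and 15.4 CPM in DP, and 2.66, 0.698 and 0.490 in N. Again no cell type overlapped another. It fell 16.7-fold from DP to N (log2 FC -4.06, SE 0.555, adjusted p = 0.000171) and was 43.1-fold lower in N than in PP (log2 FC -5.43, SE 0.565, adjusted p = 1.21e-05). From PP to DP the log2 FC was -1.37 (SE 0.420, adjusted p = 0.141), and without N replicate 1 the call was made (log2 FC -1.35, adjusted p = 0.0474), whereas without PP replicate 3 the log2 FC was -0.85 (adjusted p = 0.143).

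The ratio of the Notch2 circRNAs, exons 3 to 5 over exons 17 to 21, had means on the log2 scale of -0.42 ± 0.817 in PP, -0.60 ± 0.152 in DP and -0.39 ± 0.862 in N (SD, n = 3). In PP it was 0.16, -0.07 and -1.35, and in N it was -1.38, 0.21 and 0, so that 1 library in each stood apart, PP replicate 3 and N replicate 1. None of the 3 differences passed (exact permutation test, p = 0.8 and adjusted p = 0.8 in each). With 3 against 3 libraries the smallest p possible is 0.1, so that no difference could have passed.

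Of the fringe enzymes, Lfng had a circRNA, counted on intron sequence alone, that was found in progenitors but in no library of N. It had 3.90, 3.23 and 22.8 CPM in PP, from 15, 20 and 49 counts. It had 0.793, 1.97 and 1.12 CPM in DP, from 7, 16 and 9 counts, and 0 counts in each N library. The cell types did not overlap, and PP replicate 3 was far above the other PP libraries. Against the floor of 3 counts per library, which corresponds to 0.723 CPM on average in N, it was at least 13.8-fold lower in N than in PP and at least 1.79-fold lower than in DP. The fitted differences, which are not these bounds, passed edgeR's test (adjusted p = 0.000846 against PP and 0.0472 against DP). In N replicate 1 the floor was 1.33 CPM, above the DP mean of 1.29 CPM, so that this library by itself cannot show a fall from DP. Without PP replicate 3 the first bound was 4.93-fold. The call against DP was kept in 3 of 9 fits that leave out a library, with adjusted p values between 0.00156 (without PP replicate 3) and 0.139 (without N replicate 2). It was lost with another scaling of the libraries, RLE (adjusted p = 0.0561). Between DP and PP the log2 FC was -2.77 (SE 0.717, adjusted p = 0.0788), and without PP replicate 2 it was -3.26 (adjusted p = 0.0344), whereas without PP replicate 3 it was -1.42 (adjusted p = 0.106).

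The co-activators and the inhibitor changed less. The circRNA of Maml3 had 3.90, 4.85 and 3.72 CPM in PP, 4.30, 5.67 and 6.46 in DP, and 2.66, 3.02 and 6.21 in N. Its log2 FCs lay between -0.41 and 0.37, and none passed (adjusted p between 0.497 and 0.948). The cell types overlapped in each comparison. The circRNAs of Maml1, which share most of their bases, had 4.65 to 7.12 CPM in PP, 6.23 to 8.39 in DP and 4.65 to 6.65 in N. The cell types overlapped, except that the highest N library of exons 2 to 3 (6.21 CPM) lay just under the lowest DP library (6.23 CPM). Their log2 FCs lay between -0.32 and 0.19, and none passed (adjusted p between 0.542 and 0.906).

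The circRNAs of Numb had the fewest counts in all libraries together, 61 and 78, and 1 of them passed as lower in N than in PP. Numb exons 2 to 4 had 2.34, 2.10 and 1.86 CPM in PP, 1.47, 1.48 and 1.61 in DP, and 1.33, 0.814 and 0.653 in N, from between 3 and 13 counts. The 3 cell types did not overlap. It fell 2.50-fold from PP to N (log2 FC -1.32, SE 0.448, adjusted p = 0.0399), and neither step passed (adjusted p = 0.720 and 0.214). This call was kept in 2 of 9 fits that leave out a library, with adjusted p values between 0.0264 (without N replicate 1) and 0.153 (without N replicate 3). It was lost with DESeq2 (adjusted p = 0.120) and with scaling to total counts (adjusted p = 0.150). In edgeR's test of any difference between cell types, Numb exons 2 to 4 did not pass (adjusted p = 0.107). Numb exons 4 to 5 had 1.82, 1.46 and 1.39 CPM in PP, 1.36, 0.864 and 1.24 in DP, and 1.33, 1.05 and 0.163 in N, and no comparison passed (adjusted p between 0.241 and 0.844).

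**Figure D3:**
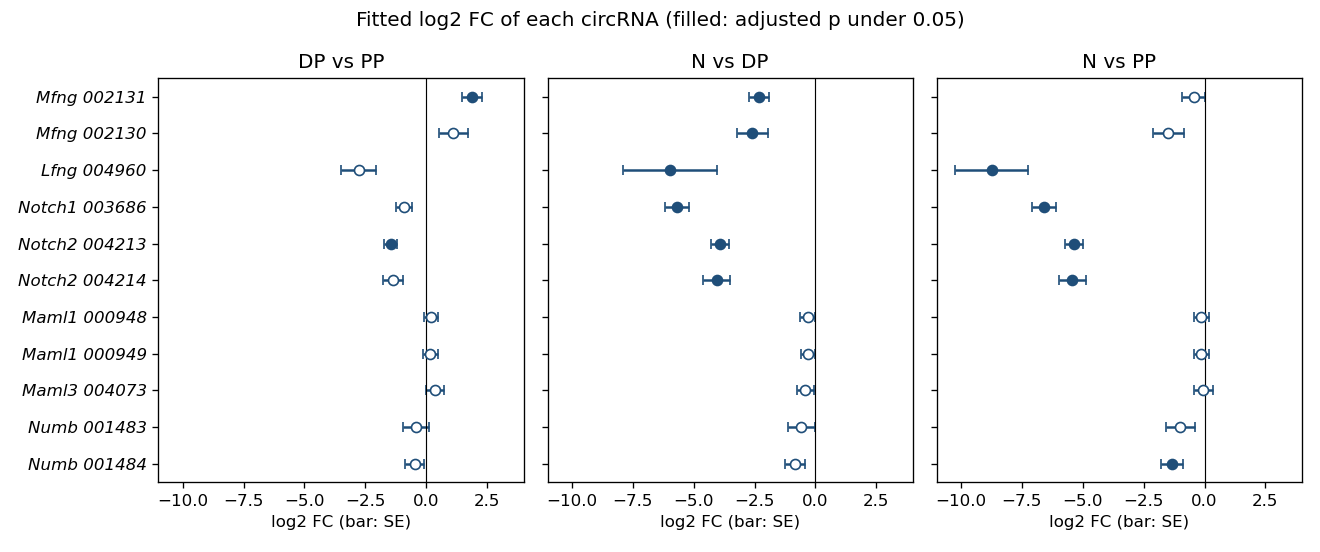
Fitted log2 FC (horizontal axes, with SE bars) of the 11 circRNAs for DP vs PP, N vs DP and N vs PP, where filled points have an adjusted p under 0.05. All points lie below 0 in N vs DP and N vs PP, and the points of Lfng against N, where all counts were 0, depend on the prior count of the fit and are no bounds.

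In all, 2 of the 11 circRNAs passed from PP to DP, 1 higher and 1 lower, against 1.86% of the 4406 tested (1.48% higher, 0.386% lower). From DP to N, 6 passed and all were lower, against 18.8% of those tested in either direction, 9.80% lower and 9.03% higher. These 6 were circRNAs of Mfng, Notch1, Notch2 and Lfng. From PP to N, 5 passed and all were lower, against 28.0% in either direction, 14.4% lower and 13.6% higher. Over any difference between cell types, 6 passed, against 25.1%, and Numb exons 2 to 4 was not among them. The fitted log2 FC was below 0 for all 11 circRNAs in both comparisons with N, including those that did not pass, but that of Mfng exons 3 to 4, Maml3 and both circRNAs of Maml1 in N over PP changed sign when a library was left out. The median log2 FC of the 11 was -0.43 from PP to DP, -2.32 from DP to N and -1.32 from PP to N, against -0.06, -0.02 and -0.10 over all circRNAs tested. With Lfng at its bound, the median from DP to N was -0.84 and that from PP to N was -1.32. All 11 passed the filter on low counts. They come from 7 genes, and those of Maml1 and those of Numb share bases, so that they are not 11 independent measurements. The genes were also chosen with earlier results of these data known.

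Libraries of one cell type did not overlap with those of the other for 7 of the 11 circRNAs between PP and DP, 6 of them lower in DP and 1 higher, against 19.3% of those tested, 8.40% lower and 10.9% higher. Between DP and N this held for 8, all lower in N, against 38.9% of those tested, 21.2% lower and 17.7% higher. Between PP and N it held for 6, all lower in N, against 36.5% of those tested, 19.1% lower and 17.4% higher.

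Per kilobase of counted length (RPKM), the order of the circRNAs changed between the cell types. In PP, Lfng came first with 45.5 RPKM ± 50.7, a mean that PP replicate 3 raises, before Notch2 exons 3 to 5 with 41.3 ± 3.46 and Notch1 with 34.9 ± 9.52 (SD, n = 3), and these neighbours did not differ beyond their spread. Without PP replicate 3, Lfng had 16.3 RPKM and came after Notch2 exons 3 to 5 (43.2 RPKM) and Notch1 (29.6 RPKM). They were followed by Notch2 exons 17 to 21 (11.5 ± 6.01 RPKM) and Mfng exons 3 to 4 (10.6 ± 3.34 RPKM), and the others were between 2.63 and 7.14 RPKM. In DP, Mfng exons 3 to 4 came first with 37.3 RPKM ± 3.88 (SD, n = 3), a level above 97.2% of all circRNAs. Notch1 (18.3 ± 3.85 RPKM) and Notch2 exons 3 to 5 (15.0 ± 0.120 RPKM) followed, within their spread of each other. In N the highest was again Mfng exons 3 to 4, with 8.34 RPKM ± 4.30 (SD, n = 3), which overlapped Numb exons 4 to 5 at 3.88 ± 2.79, and Notch1 was at 0.269 RPKM ± 0.233. The counted lengths of Mfng exons 5 to 7, Notch1 and Notch2 exons 17 to 21 include introns, which lowers their RPKM where the introns hold fewer reads.

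PP replicate 3 and N replicate 1 had the fewest counts outside the highest entries within their cell types, and some circRNAs whose counted length includes intron sequence stood apart in them. Against the mean of the other PP libraries on the log2(CPM + 1) scale, PP replicate 3 was higher by 2.38 for Lfng, 1.69 for Mfng exons 5 to 7, 1.17 for Notch2 exons 17 to 21 and 0.61 for Notch1. For the 7 circRNAs counted on exons alone it differed by between -0.47 and 0.54. N replicate 1 was higher than the other N libraries by 1.54 for Mfng exons 5 to 7 and 1.20 for Notch2 exons 17 to 21, but lower by 0.56 for Notch1, against between -0.56 and 0.67 for those counted on exons alone. N replicate 2 differed more for Mfng exons 5 to 7, by -2.13. Over the table, the median of this difference in PP replicate 3 was -0.11 for 3710 circRNAs counted on exons alone, 0.17 for 547 with a length beyond their exons and 0.18 for 119 whose ends are not exon ends. In N replicate 1 these medians were -0.05, 0.38 and 0.61. The part of intron reads in the results on Mfng exons 5 to 7, Notch1, Notch2 exons 17 to 21 and Lfng was not tested. In the main fit the calls between PP and DP were of Mfng exons 3 to 4 and Notch2 exons 3 to 5, which were counted on exons alone. With DESeq2, Lfng passed as well (adjusted p = 0.0111). Without PP replicate 3 and N replicate 1 together, Lfng, Mfng exons 5 to 7, Notch1 and Notch2 exons 17 to 21 also passed.

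**Figure D4:**
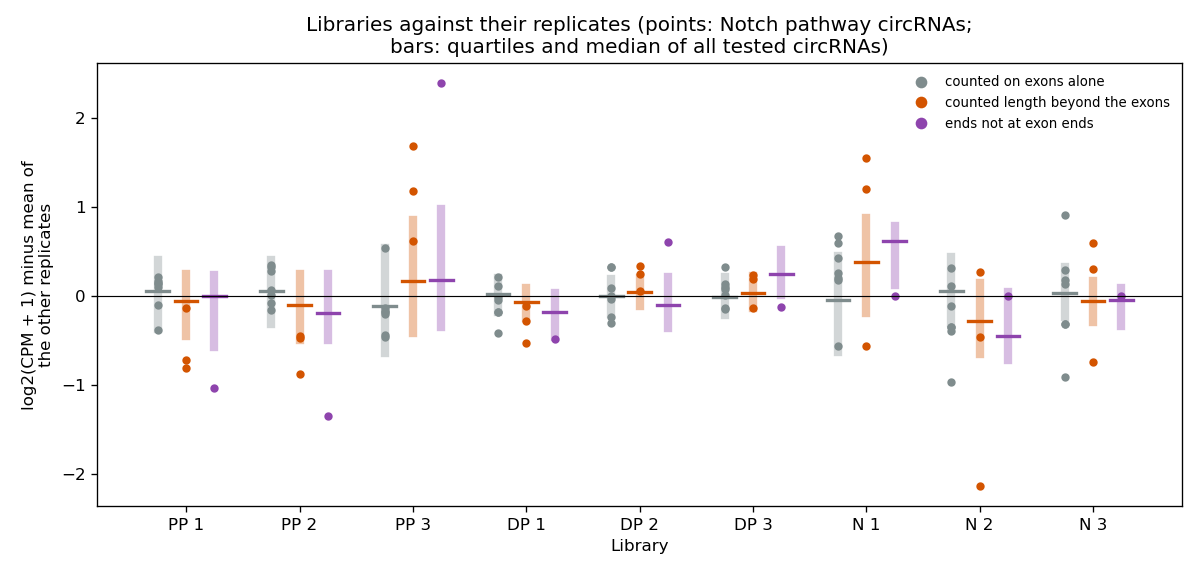
Difference of each library from the mean of the other libraries of its cell type, on the log2(CPM + 1) scale (vertical axis), for the 11 circRNAs (points) and all circRNAs tested (bars from lower to upper quartile, with the median), by whether counts lie on exons alone, reach beyond the exons, or belong to circRNAs whose ends are not exon ends. In PP replicate 3 the points of Lfng, Mfng exons 5 to 7 and Notch2 exons 17 to 21 lie well above those counted on exons alone, and that of Notch1 is close to the highest of them.

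Other genes of the pathway were read from a list of 61 genes with receptors, ligands, proteases, ubiquitin ligases, co-repressors and targets. Of these, 20 had a circRNA, with 49 circRNAs in all, of which 45 were tested. No circRNA was found for the transcription factor gene Rbpj, the target genes Hes1, Hes5 and Hey1, or the third fringe gene, Rfng. From PP to DP, none of the 45 passed edgeR's test, against 1.86% of all circRNAs tested, a share at which few calls would be expected among 45. In edgeR's test 5 had an unadjusted p under 0.05, 4 of them higher in DP, and none passed the threshold by DESeq2. From DP to N, 7 passed (15.6%, against 18.8% of all circRNAs tested), 5 lower and 2 higher. This count was 2 without DP replicate 2 or N replicate 2, 3 without N replicate 3, 4 without DP replicate 1 and 1 with scaling to total counts. From PP to N, 8 passed (17.8%, against 28.0%), 6 lower and 2 higher, and 5 without PP replicate 2 or with total counts. The median log2 FCs were -0.10 from PP to DP, -0.05 from DP to N and -0.16 from PP to N.

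Those that passed as lower in N than in both progenitor types were circRNAs of the ubiquitin ligase gene Nedd4, the deltex gene Dtx4 and the co-activator gene Maml2. CiCo_mm9_circ_006742 of Nedd4 had 52.6 CPM ± 0.583 in PP, 38.7 ± 3.20 in DP and 19.6 ± 4.16 in N (SD, n = 3), with a log2 FC of -0.99 from DP to N (adjusted p = 0.0236) and -1.44 from PP to N (adjusted p = 0.00178). Its other circRNA, CiCo_mm9_circ_006741, fell from DP to N with a log2 FC of -1.25 (adjusted p = 0.00814) and from PP to N with -1.52 (adjusted p = 0.00164). Both of Dtx4, which overlap, fell by similar amounts, with log2 FCs of -1.34 and -1.29 from DP to N (adjusted p = 0.0133 and 0.0262) and of -1.70 and -1.38 from PP to N (adjusted p = 0.00242 and 0.0174). Maml2, CiCo_mm9_circ_006504, fell with a log2 FC of -1.76 from DP to N (adjusted p = 0.0190) and -2.10 from PP to N (adjusted p = 0.00563), and it thus differed in its calls from the circRNAs of Maml1 and Maml3, although the difference between these genes was not tested. CiCo_mm9_circ_004657 of the co-repressor gene Tle1 was lower in N than in PP, with a log2 FC of -1.04 (adjusted p = 0.0285). Its log2 FC was also -1.04 from PP to DP (adjusted p = 0.137), and 0.00096 from DP to N (adjusted p = 0.998).

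Dtx1, a deltex gene like Dtx4, gave the largest change of the list and in the opposite direction. Its circRNA, CiCo_mm9_circ_004824 (chr5:121144419-121145121, minus strand), had 0.872 CPM ± 0.202 in PP, 3.50 ± 0.859 in DP and 24.7 ± 13.3 in N (SD, n = 3). It rose 6.84-fold from DP to N (log2 FC 2.77, SE 0.396, adjusted p = 0.000216) and was 28.2-fold higher in N than in PP (log2 FC 4.82, SE 0.514, adjusted p = 1.56e-05). A circRNA of Aak1, an endocytic kinase, also rose from DP to N (CiCo_mm9_circ_005560, log2 FC 1.74, adjusted p = 0.00856).

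The circRNAs of other genes whose levels were most like those of the listed circRNAs over the 9 libraries were sought by Pearson's r of log2(CPM + 1) among 2203 circRNAs of at least median abundance. The libraries are 3 cell types of 3, so that a shared difference between cell types alone gives a high r, and r is a description. For Lfng, Mfng exons 5 to 7 and Notch2 exons 17 to 21, PP replicate 3 stood above the other PP libraries, so that this library also weighs in their r. For Mfng exons 3 to 4 the nearest were CiCo_mm9_circ_004201 of Anp32e (r = 0.947), CiCo_mm9_circ_002168 of Rangap1 (r = 0.916) and CiCo_mm9_circ_004291 of Ptprf (r = 0.895). The last was also among the nearest of Mfng exons 5 to 7 (r = 0.892), after one of Gpr56 (r = 0.897) and before CiCo_mm9_circ_004202 of Anp32e (r = 0.888). For Notch1 they were circRNAs of Spata13 (r = 0.994), Cdca3 (r = 0.992) and Timeless (r = 0.990). For Notch2 exons 3 to 5 they were those of Cdon (r = 0.992), Tox3 and Ppap2b (r = 0.986 each), and for Notch2 exons 17 to 21 those of Spata13 (r = 0.992), Prdm16 (r = 0.991) and Sema5b (r = 0.987). For Lfng they were circRNAs of Fgfr2 (r = 0.976), Tkt (r = 0.975) and Sf3b3 (r = 0.969), and for Numb exons 2 to 4 those of Sema5b (r = 0.984), Cdon (r = 0.968) and Nedd4 (r = 0.951).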

How the data were processed

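The authors sequenced RNase R-treated, strand-specific libraries, aligned reads with gsnap to mm9 with Ensembl genes, called circRNAs with find_circ from unmapped reads and counted with featureCounts (Subread 1.6.0 per the submitters' processing notes). The deposited values are raw counts per circRNA and library, with the counted length. Parental genes came from the deposited circRNA sheet for 6 of the 11 circRNAs and from GENCODE vM1 for 5. Here counts were filtered (filterByExpr) and scaled to CPM by TMM, and compared by the quasi-likelihood test of edgeR 4.0.16 under R 4.3.3 (Benjamini-Hochberg adjustment over all 4406 circRNAs tested, threshold 0.05) in one model of all 9 libraries. CPM per kilobase of counted length gave RPKM. Ratios were tested by exact permutation in scipy 1.17.1. DESeq2 1.42.0 was an alternative. The edgeR fit was also run on simulated counts with the same spread for all circRNAs. These held no deviating libraries like PP replicate 3 or N replicate 1, so that calls that turn on such libraries were not tested by them. The biological coefficient of variation was 0.296. Replicate libraries differed beyond counting noise and were kept as separate samples. The study calls the replicates biological, and whether libraries of different cell types share animals is not stated.

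All circRNAs of the listed genes are named, as are circRNAs of the other pathway genes past the threshold (1 of them, and some marker genes, are not reported here), and the 3 most similar circRNAs for each member past the threshold. Members, lists and alternatives were chosen with earlier results of these data known, and the counted-length classes after the counts were seen. Sequences were read from NCBIM37 and primers from the study's list.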

Additional observations from a re-analysis of the deposited data

How the results depend on the processing

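The falls of Mfng, Notch1 and Notch2 circRNAs from DP to N, and of Notch1, Notch2 and Lfng from PP to N, passed under all 17 alternatives that could test them. From PP to DP, where 2 circRNAs passed, 0 did with scaling to total counts, and 6 without PP replicate 3 and N replicate 1 together. Requiring at least 10 counts in every library left 2 circRNAs (Maml1), of which 0 passed in any comparison. With a library left out, between 0 and 3 passed from PP to DP, 5 and 6 from DP to N, 4 and 6 from PP to N, and 5 and 6 over any difference. Libraries of different cell types with the same replicate number had correlations of deviations between -0.22 and 0.27. These values cannot settle whether the replicate numbers pair the samples. With the replicate number as a block, 1 circRNA passed from PP to DP, Notch2 exons 3 to 5. Mfng exons 3 to 4 then had an adjusted p of 0.0522, and Numb exons 2 to 4 was lost from PP to N (adjusted p = 0.0877). The block left 6 from DP to N and 4 from PP to N. Total counts moved the median log2 FC of all circRNAs to -0.37 in both comparisons with N, with 84 higher and 323 lower calls in N vs DP against 398 and 432.

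For the other pathway genes, 1 passed from PP to DP in a fit of these cell types alone and 5 without both libraries. From DP to N, 1 passed with total counts, 2 with at least 10 counts and 12 without both libraries, and from PP to N, 5 with total counts, 2 with at least 10 counts and 5 in a fit of these cell types alone. With a library left out, these counts were 0 to 1, 2 to 9 and 5 to 9.

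Signs turned only where no call was made: Maml3 from PP to N had a log2 FC of 0.011 without both libraries, and with a library left out the log2 FC from PP to N was -0.53 to 0.19 for Maml3, -0.26 to 0.0503 for Maml1 exons 2 to 4, -0.26 to 0.0283 for Maml1 exons 2 to 3 and -0.68 to 0.0555 for Mfng exons 3 to 4. The difference of the Notch2 ratio was -0.65 to 0.11 for DP vs PP, -0.0878 to 0.70 for N vs DP and -0.44 to 0.52 for N vs PP. The causes were not tested. A count of 3 corresponded to 1.39 CPM in PP replicate 3 and 1.33 CPM in N replicate 1, the highest floors of all libraries.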
